A study of Mus musculus with 12 samples.

Results

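The inhibitory receptor genes Lag3, Lilrb4a, Cd33, Siglecf, Lair1, Pilra and Cd300lf, and Ptpn6, which encodes the phosphatase SHP-1, were followed in mouse hippocampus. They were chosen by gene symbol. All 8 were found among the 756 genes of the table, and all 8 averaged 20 or more normalized counts over the 12 mice, the minimum for testing, which 695 genes met. RNA had been hybridised to the nCounter Mouse Neuroinflammation panel, which counts barcoded probes bound to transcripts without amplification.

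The 3 groups held 4 mice each. Non-transgenic littermates and 1 group of 5xFAD mice received vehicle, which was water with 1% polyethylene glycol 400. The other 5xFAD mice received TPPU, an inhibitor of soluble epoxide hydrolase, at 3 mg/kg in that same vehicle. Treatment began at the age of 2 months and lasted 2.5 months. 5xFAD mice model familial Alzheimer's disease with transgenes under the Thy1 promoter, which is active in neurons and not in microglia. No group of non-transgenic mice given TPPU was analysed here, so the treatment was measured in 5xFAD mice alone. The strain background is not stated in the labels used here.

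Inhibitory receptors of immune cells set a limit on activating signals. Many of them carry a tyrosine-based inhibitory motif, the ITIM, in the cytoplasmic tail. When a kinase phosphorylates it, the ITIM recruits phosphatases such as SHP-1 and the lipid phosphatase SHIP-1, which remove phosphate from the products of activating receptors. In brain, microglia are the main cells known to carry this machinery, opposite activating receptors such as TREM2 that signal through the adaptor TYROBP.

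Scaling factors and probe counts were inferred from the deposited normalized values, as described below. The total probe counts ran from 1050334 to 1314362 per mouse, and the factors from 0.871 to 1.10. Neuronal markers were read beside the hippocampal label, and their 13 genes summed to 86409 to 119856 normalized counts per mouse. The sum does not test which brain region was taken, and 1 of the 13, Slc17a6, ran from 474 to 4587 between mice. All mice are labelled male. In 6 of them, 2 per group, Uty and Kdm5d of the Y chromosome measured 366 to 518 and 306 to 369, but in the other 6 only 15.2 to 33.5 and 14.2 to 22.8, which conflicts with that label. The choroid plexus gene Ttr stood at 4270 in vehicle-treated 5xFAD mouse 1 and 16461 in non-transgenic mouse 4, against 77.1 to 284 elsewhere. The fits were repeated with a block for Y-linked status, and again leaving out the 2 mice of high Ttr. Levels of 14.2 to 33.5 counts, those of the Y-linked probes in the low mice, are taken below as a rough floor. Other probes read lower, such as that of Ms4a1 at 0.896 to 19.0, so a value within the floor is not shown to be undetected. The labels used here do not say whether background was subtracted. How far such a floor sets the folds of the least abundant genes was not tested.

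The promoters of 6 of the 8 genes were found in the RefSeq table (GRCm38.p6). Lag3 and Lilrb4a had no entry. The stretches of Cd33 and Siglecf, both on chromosome 7, are shown for the longest run of identical bases of any pair, and that of Ptpn6 because it encodes SHP-1. Capitals mark the shared run of 16 bases in Cd33 and Siglecf. In Ptpn6 they mark the letters GGAAGT, a core of sites bound by ETS factors such as PU.1, on either strand.
Cd33, chr7:43533272-43533371, minus strand: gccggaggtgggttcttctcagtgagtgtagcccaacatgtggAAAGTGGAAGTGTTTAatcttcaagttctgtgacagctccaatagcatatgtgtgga
Siglecf, chr7:43351241-43351340, plus strand: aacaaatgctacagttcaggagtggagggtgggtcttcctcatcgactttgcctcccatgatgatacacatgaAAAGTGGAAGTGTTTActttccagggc
Ptpn6, chr6:124738790-124738909, minus strand: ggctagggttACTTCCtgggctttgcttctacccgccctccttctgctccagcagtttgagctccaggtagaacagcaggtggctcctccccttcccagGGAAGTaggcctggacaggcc
The shared run ended 142 bases before the annotated start of Cd33 and 12 bases before that of Siglecf. The longest run shared by any other pair of the 6 promoters had 9 bases.

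The letters GGAAGT were searched on both strands over 250 bases before and 50 bases after each start. They occurred in 5 of the 6 promoters, those of Cd33, Siglecf, Pilra, Cd300lf and Ptpn6. The matches of Cd33 and Siglecf both lie in their shared run of 16 bases, so they are not independent. The share was 23.8% of all 32851 promoters in the table and 28.5% of the 785 that belong to panel genes, the closer background, and both shares are given in this order below. The longer forms contain it. AGGAAGT was found for Pilra, Cd300lf and Ptpn6 (9.35% and 13%) and GAGGAAGT for Cd300lf (3.2% and 3.82%), while a 10-letter PU.1 form was in none of the 6 (0.426% and 1.02%). These were among 11 patterns searched, 10 of them distinct on both strands. The ETS and interferon regulatory factor composite (2.72% and 2.68%) and the interferon response composite (3.44% and 5.86%) were each found for Pilra alone. TATAAA was found for Cd300lf (13.6% and 10.7%) and CCGCCC for Pilra and Ptpn6 (35.7% and 53.9%). The letters CACGTG (7.15% and 9.55%) and TGAGTCA with its reverse complement (5.2% and 6.5%) were in none of the 6 promoters. GGAAGT and the stretches above were chosen for display after the matches were seen. These are matches of letters, not measured binding.

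Between vehicle-treated 5xFAD and non-transgenic mice, 7 of the 8 genes rose. Limma, a linear model across all 695 genes, called them at a Benjamini-Hochberg adjusted p under 0.05. Lag3, Ptpn6, Lair1 and Cd33 rose 4.02-fold, 3.26-fold, 2.53-fold and 2.27-fold. Lilrb4a, Siglecf and Pilra had estimates of 6.34-fold, 6.06-fold and 2.32-fold, but their non-transgenic values lie at the floor given above or reach into it, so the size of these folds is uncertain and they are not ranked. Cd300lf, which lies there too, was not called, with an estimate of 1.68-fold. Over all genes, 130 were called higher, which is 18.7%, and 0 lower. At an unadjusted p under 0.05 all 8 genes passed, as did 28.1% of all genes in that direction, while 7 genes, 1.01%, were lower. The median log2 change was 1.52 over the 8 genes and 0.13 over all genes tested.

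The sialic acid receptors differed in size of change. Siglecf is known in mouse as a receptor of eosinophils and alveolar macrophages. It stood at 19.2, 15.9, 17.0 and 21.9 normalized counts in the 4 non-transgenic mice, and at 70.9, 170.4, 158 and 95.8 in vehicle-treated 5xFAD mice. The lowest 5xFAD mouse lay 3.23 times above the highest non-transgenic mouse, and the log2 change was 2.60 (SE 0.42, n = 4 mice per group, adjusted p = 0.00204 by limma). The non-transgenic values lie at the level of Y-linked probes in mice with low Y-linked counts.

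Cd33 encodes a related receptor whose human variants are associated with Alzheimer's disease risk, and whose mouse protein differs from the human one in its cytoplasmic tail. It stood at 80.1, 61.5, 68.1 and 68.7 in non-transgenic mice and at 139, 173, 201 and 129.7 in vehicle-treated 5xFAD mice. The groups did not overlap, and the log2 change was 1.18 (SE 0.20, adjusted p = 0.00216 by limma).

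Among the immunoglobulin-like receptors, Lilrb4a, which encodes the ITIM receptor gp49B of mast cells and myeloid cells, had the widest spread of the 8 in 5xFAD mice. It stood at 34.8, 21.8, 26.0 and 29.6 in non-transgenic mice and at 119, 168, 356 and 149 in vehicle-treated 5xFAD mice. The groups were apart, and mouse 3 stood highest (log2 change 2.66, SE 0.48, adjusted p = 0.00234 by limma). The annotation places it next to its close paralog Lilr4b, and whether the probe separates them was not tested. All non-transgenic values but that of mouse 1 lie within the floor.

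Lair1, a collagen receptor with ITIMs, was the most abundant of the 8 by probe count in non-transgenic mice, a scale on which different probes cannot be compared strictly. It stood at 105, 103, 115 and 132 in non-transgenic mice and at 324, 257, 358 and 233 in vehicle-treated 5xFAD mice. The groups were apart, with a log2 change of 1.34 (SE 0.22, adjusted p = 0.00215 by limma).

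Pilra, the inhibitory member of a receptor pair that binds sialylated proteins, ran from 13.9 to 18.1 in non-transgenic and from 32.2 to 47.9 in vehicle-treated 5xFAD mice (log2 change 1.21, SE 0.25, adjusted p = 0.00443 by limma). Its activating neighbour in the genome, Pilrb1, lay under the minimum for testing, at 11.6 ± 3.48 and 11.1 ± 2.40 (SD, n = 4). Both genes are therefore low, and Pilra's non-transgenic level is again that of the floor described above.

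Cd300lf encodes an ITIM receptor that binds lipids such as phosphatidylserine and ceramide. It stood at 19.2, 25.8, 18.8 and 10.5 in non-transgenic mice and at 18.0, 38.5, 27.6 and 44.9 in vehicle-treated 5xFAD mice. These non-transgenic values lie at or under the upper end of the floor. Unlike the other 7 genes it overlapped between the groups, because 5xFAD mouse 1 lay within the non-transgenic range. Its log2 change was 0.75 with a 95% interval of 0.02 to 1.48 (adjusted p = 0.157 by limma), an interval that includes the changes of Lair1, Pilra and Cd33. Without 5xFAD vehicle mouse 1, limma called it (log2 change 0.99, adjusted p = 0.0483). That mouse is 1 of the 2 with high Ttr, and without both the adjusted p was 0.107.

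Lag3 binds MHC class II molecules and is best known as an inhibitory receptor of activated T cells. It uses motifs other than the ITIM. It stood at 107, 83.4, 82.4 and 87.8 in non-transgenic mice and at 249, 392, 511 and 348 in vehicle-treated 5xFAD mice. The lowest 5xFAD mouse was 2.32 times the highest non-transgenic mouse (log2 change 2.01, SE 0.32, adjusted p = 0.00204 by limma). Of the T cell genes Cd3d, Cd3e, Cd3g, Cd8a and Cd8b1, no value exceeded 29.9 counts in any mouse, and their sum ran from 60.9 to 78.4 in non-transgenic and from 70.0 to 102 in vehicle-treated 5xFAD mice.

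Ptpn6 encodes SHP-1, the phosphatase that phosphorylated ITIMs recruit. It stood at 81.9, 66.5, 64.5 and 85.9 in non-transgenic mice and at 195, 245, 364 and 204 in vehicle-treated 5xFAD mice. The groups did not overlap, and the log2 change was 1.71 (SE 0.36, adjusted p = 0.00459 by limma). All but Cd300lf of the 8 genes, 7 in number, had no overlap between the groups, a separation seen in this direction in 21.6% of all genes tested.

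**Figure D1:**
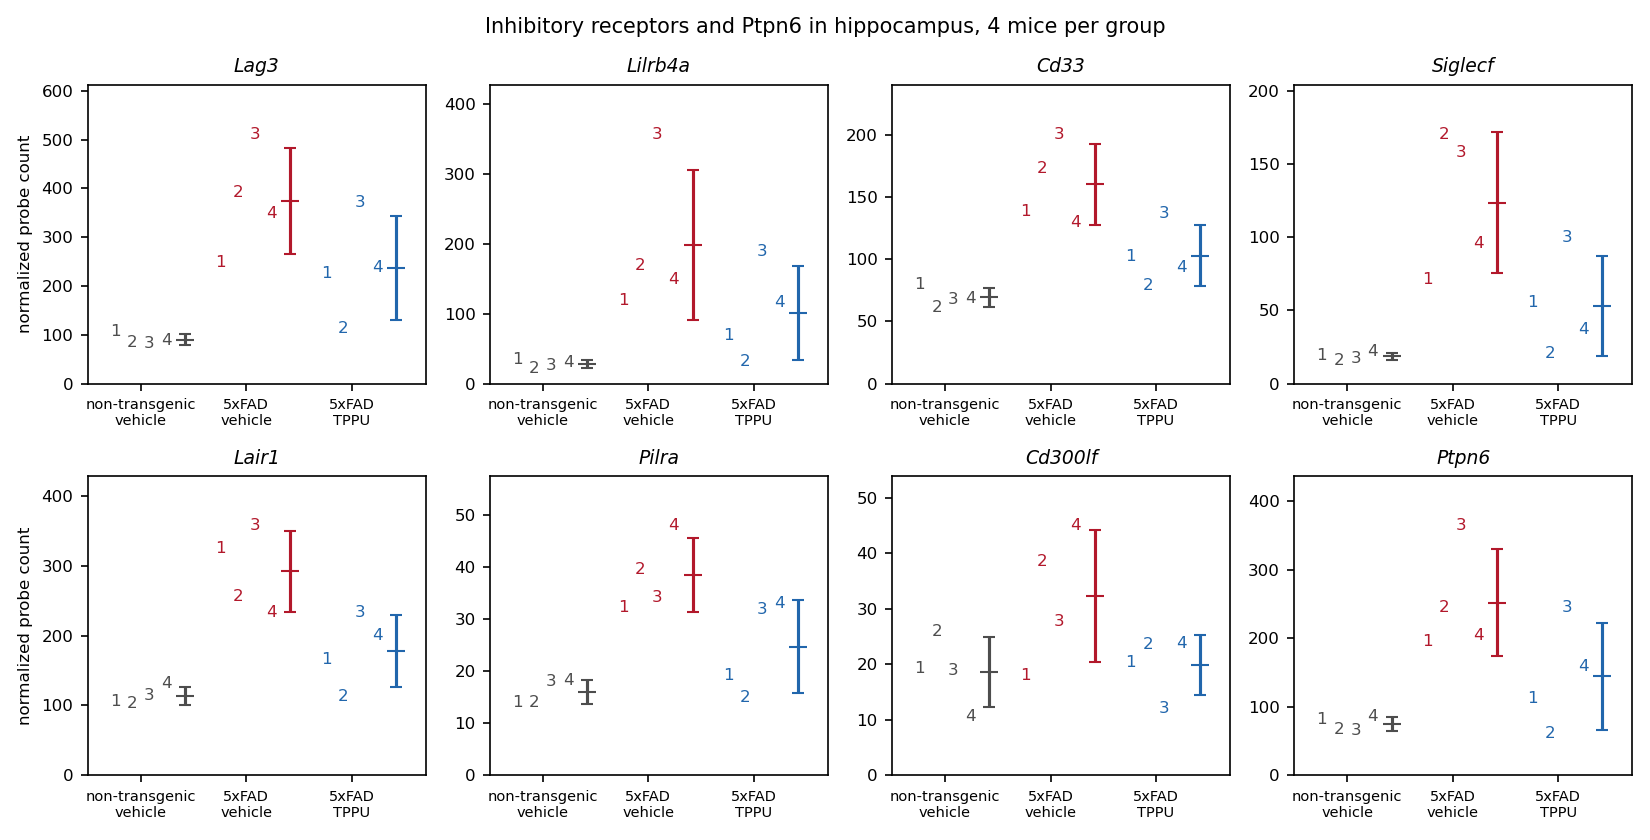
Normalized probe counts (linear vertical axes from 0) of the 8 genes in each mouse, by group. Each digit is the number of a mouse, and each bar shows the mean and SD of 4 mice; Lilrb4a reached 356 in vehicle-treated 5xFAD mouse 3, and TPPU-treated mouse 2 lay near the non-transgenic mice.

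The scale mattered for the size of the changes and not for the 7 calls. Centring each array on its median lowered all changes in this comparison by 0.28 on the log2 scale. Limma then called 102 genes higher and 88 lower, and after quantile normalization 80 higher and 104 lower, with the same 7 genes of this set called higher under each. After quantile normalization Lilrb4a, Siglecf, Ptpn6 and Cd33 had log2 changes of 2.06, 1.99, 1.09 and 0.53, all called. The scaling factors ran from 0.871 to 0.993 in non-transgenic and from 0.946 to 1.10 in vehicle-treated 5xFAD mice, and their part in the changes was not tested beyond these fits. In the 6 mice with high Y-linked counts the log2 changes of the 8 genes ran from 1.11 to 2.80, and in the 6 with low counts from 0.25 to 2.67, with Cd300lf lowest in the latter. Each of these rests on 2 mice per group.

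In bulk RNA, more cells of a type cannot be told apart from more RNA per cell. The 8 genes were therefore also measured against 8 genes of resting microglia, namely Tmem119, P2ry12, Cx3cr1, Csf1r, Gpr34, Olfml3, Fcrls and Sall1. Limma called 6 of those 8 higher in vehicle-treated 5xFAD mice. Their mean log2 level lay 1.03 ± 0.23 above the non-transgenic mean in vehicle-treated 5xFAD mice and 0.63 ± 0.41 above it in TPPU-treated mice (SD, n = 4). These genes may themselves change per cell, so the measure compares gene sets and does not count microglia.

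Relative to the microglial genes, 4 of the 8 genes still rose between the genotypes, and 7.63% of all genes did. Lilrb4a gained a log2 excess of 1.64 (SE 0.32, adjusted p = 0.000713 by limma), Siglecf 1.57 (SE 0.28, 0.000585), Lag3 0.98 (SE 0.19, 0.000766) and Ptpn6 0.68 (SE 0.22, 0.0108). The floor bears on the size of the first 2 estimates as above. All 4 calls held without each mouse of the 2 groups in turn. Lair1, Pilra, Cd33 and Cd300lf were not called on this measure. Their differences were 0.31 (95% interval -0.09 to 0.72), 0.18 (-0.33 to 0.70), 0.15 (-0.21 to 0.52) and -0.28 (-1.13 to 0.58), all of which include 0. The estimate for Pilra turned to -0.12 with a pseudocount of 10. Since all genes that did not rise with microglial genes fall on this measure, 70.6% of genes were called lower.

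**Figure D2:**
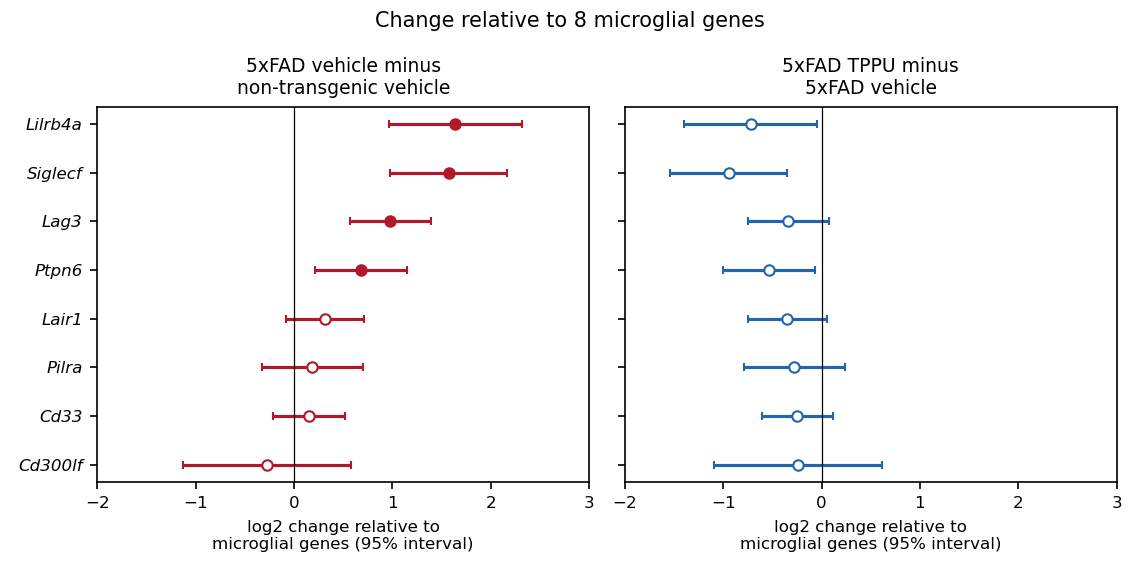
Log2 change of each gene after the mean of 8 microglial genes was subtracted in each mouse (horizontal axis), with 95% intervals, for genotype (left) and TPPU (right). Filled points passed an adjusted p under 0.05; Lilrb4a, Siglecf, Lag3 and Ptpn6 did so for genotype and no gene did for TPPU.

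Marker lists of other immune cells were read beside these changes. Of 16 T and NK cell genes in the table, 11 lay under the minimum and 0 of the other 5 were called between the genotypes, with summed levels of 245 to 278 in non-transgenic and 229 to 326 in vehicle-treated 5xFAD mice. The mast cell genes Cpa3, Tpsb2 and Ms4a2 together stood at 32.2 to 40.1 and 24.6 to 61.8. Of the whole list of eosinophil and mast cell genes, 6 were in the table, with sums of 384 to 516 and 398 to 581, and 0 of 2 tested were called. Most of these sums is Kit, which averaged 361 and 371, and Ms4a1 also stands on the B cell list. The sums therefore do not measure eosinophils or mast cells. Of the 2 tested, Hdc, the histamine-forming enzyme, had a log2 difference of 0.61 between the genotypes (adjusted p = 0.0868 by limma) and of -0.54 under TPPU (adjusted p = 0.247). None of these markers was listed at 0. Monocyte markers (0 of 4 called) summed to 396 to 748 and 343 to 1102, and border-associated macrophage markers (0 of 2 called, 3 in the table) to 63.0 to 106 and 77.1 to 171. Neutrophil markers summed to 95.9 to 207 and 233 to 905, with 1 of 2 called, Csf3r, which rose 3.17-fold. Most of these sums is Csf3r and Lcn2, and Lcn2 alone reached 669 in vehicle-treated 5xFAD mouse 4. Ly6g and Fpr1 lay under the minimum for testing. They averaged 11.4 ± 4.68 and 13.4 ± 3.76 in non-transgenic mice and 19.1 ± 9.98 and 17.2 ± 8.01 in vehicle-treated 5xFAD mice (SD, n = 4). The neutrophil sums therefore do not measure neutrophils. The dendritic cell list held 1 gene in the table, Itgax, which plaque-associated microglia also express, and it rose 5.59-fold (adjusted p = 0.00750 by limma). Non-transgenic values of Itgax, 12.9 to 17.9, lie within or under the floor, so the size of that fold is uncertain. Of the genes of plaque-associated microglia, 11 of 11 rose, with a median log2 change of 2.73, and 0 of 11 were called under TPPU (median -1.10). The part of these cells in the changes was not tested. Defining eosinophil genes were not analysed here.

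TPPU-treated 5xFAD mice had lower mean levels of all 8 genes than vehicle-treated 5xFAD mice, but no gene was called. The log2 change was negative for 489 of the 695 genes tested and positive for 206. Over the whole panel limma called 0 of 695 genes (0%) in either direction, while 119 genes had an unadjusted p under 0.05 and were lower, which is 17.1%, and 7, or 1.01%, were higher. Voom weights on the whole probe counts also called 0, whereas array weights called 44 genes, 43 of them lower, among them Siglecf (adjusted p = 0.0412), Cd33 (0.0433), Pilra (0.0433) and Lair1 (0.0473). Unadjusted p was under 0.05 for 7 of the 8 genes, all but Cd300lf. Their adjusted p ran from 0.169 for Lair1 to 0.330 for Cd300lf. The median log2 change was -0.74 over the 8 genes and -0.12 over all genes.

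Treated values of Siglecf, Lilrb4a, Pilra and Cd300lf lie in part or all within or under the floor given above. The size of their differences is therefore uncertain, and they are not ranked. Siglecf stood at 55.4, 20.3, 99.6 and 37.1 normalized counts in TPPU-treated mice, against 70.9 to 170.4 in vehicle-treated 5xFAD mice. In 3 of the 4 treated mice it lay below every vehicle-treated mouse. The log2 difference was -1.34 (95% interval -2.26 to -0.43, adjusted p = 0.175 by limma). Lilrb4a stood at 68.2, 30.9, 188 and 116 against 119 to 356, a difference of -1.12 (-2.18 to -0.06, adjusted p = 0.251).

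Ptpn6 stood at 112, 60.8, 245 and 159 in TPPU-treated mice against 195 to 364 (log2 difference -0.93, 95% interval -1.71 to -0.15, adjusted p = 0.217 by limma). Lair1 stood at 166, 112, 233 and 199.7 against 233 to 358 (-0.75, -1.23 to -0.26, 0.169). For both, part of the treated mice reached into the vehicle-treated range, narrowly so for Lair1, where mouse 3 was 0.47 counts above the lowest vehicle-treated mouse.

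Lag3 stood at 225, 112, 372 and 239 in TPPU-treated mice against 249 to 511 (log2 difference -0.74, 95% interval -1.43 to -0.04, adjusted p = 0.251 by limma). Cd33 stood at 102, 79.0, 137 and 93.7 against 129.7 to 201 (-0.65, -1.07 to -0.22, 0.175). Pilra ran from 14.9 to 32.9 against 32.2 to 47.9 (-0.67, -1.22 to -0.13, 0.212). Cd300lf ran from 12.03 to 23.7 against 18.0 to 44.9 (-0.64, -1.37 to 0.09, 0.330). The intervals admit differences from near 0 to more than 1 log2 unit, and none of the 8 genes separated the groups in every mouse, which 4.32% of all genes did in this direction.

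The treated mice differed from each other. In TPPU-treated mouse 2, 6 of the 8 genes lay within the non-transgenic range, 1 above it (Lag3) and 1 below it (Ptpn6). In TPPU-treated mouse 3, 6 of the 8 lay within or above the vehicle-treated 5xFAD range. The median difference of the 8 genes from the non-transgenic mean was 0.57, 0.15, 1.37 and 0.99 log2 in TPPU-treated mice 1 to 4, against 1.42, 1.51, 1.97 and 1.49 in the vehicle-treated 5xFAD mice. The microglial genes followed a like order, at 0.57, 0.13, 1.14 and 0.69 in the treated mice. Slc17a6, a vesicular glutamate transporter gene prominent in subcortical neurons, also varied, at 1653, 528, 4587 and 1074 normalized counts in TPPU-treated mice 1 to 4. In vehicle-treated 5xFAD mice it measured 2235, 1058, 3186 and 1744, highest in mouse 3 as in the treated group. In non-transgenic mice it ran from 474 to 2719, and its part in the results was not tested. Without TPPU-treated mouse 3, limma called 39 genes, and 4 of these 8 fell: Siglecf (log2 difference -1.71, adjusted p = 0.0366), Ptpn6 (-1.24, 0.0413), Lair1 (-0.89, 0.0390) and Cd33 (-0.79, 0.0377). Leaving out any other mouse of these 2 groups gave no call among the 8.

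**Figure D3:**
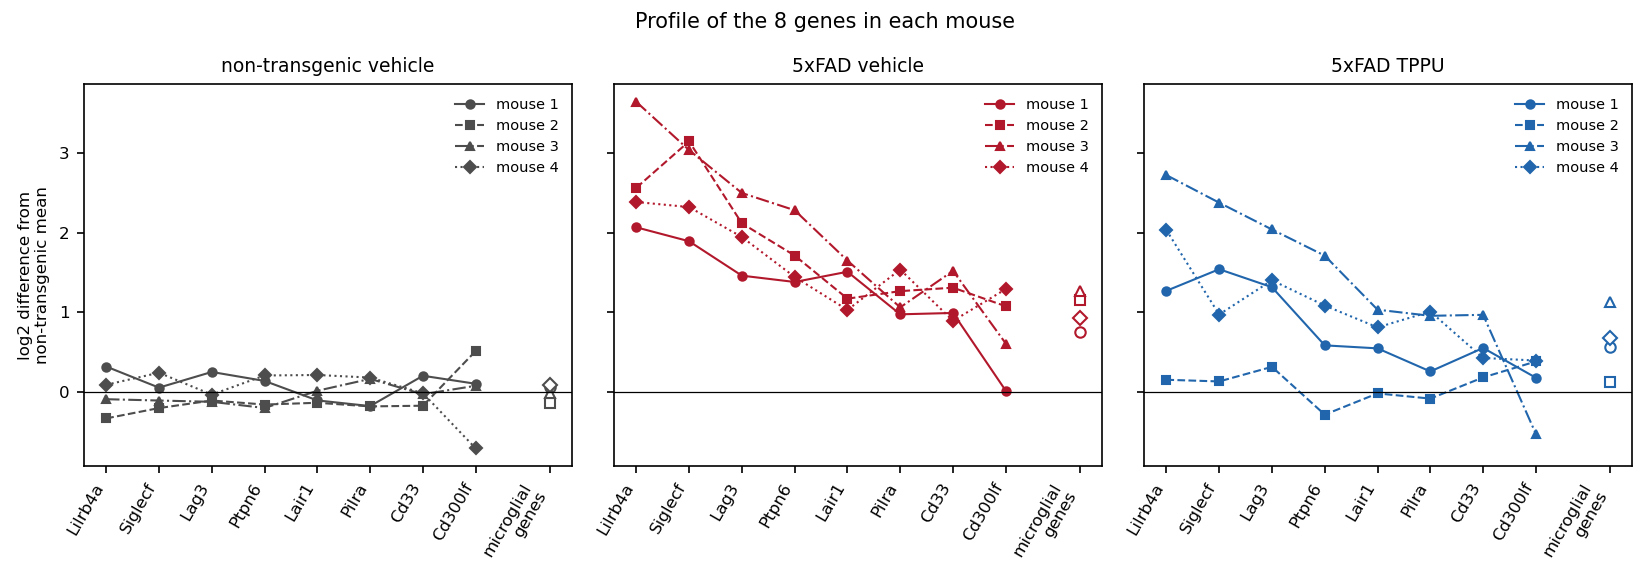
Log2 difference of each gene from its non-transgenic mean (vertical axis) in each of 12 mice, with genes ordered by their genotype change and lines joining the values of a mouse. Open symbols give the mean of 8 microglial genes in the same mouse; TPPU-treated mouse 2 runs along 0 and mouse 3 near the vehicle-treated 5xFAD mice.

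Relative to the microglial genes each TPPU difference was closer to 0 by the same amount. This follows from the lower mean of those genes in treated mice, 0.63 against 1.03 log2 above the non-transgenic mean. The floor bears on the size of the Siglecf and Lilrb4a estimates as above. Siglecf lay 0.94 log2 lower (95% interval -1.54 to -0.35, adjusted p = 0.206 by limma), Lilrb4a 0.72 lower (-1.40 to -0.04, 0.210) and Ptpn6 0.53 lower (-0.999 to -0.06, 0.206). The unadjusted p was under 0.05 for these 3 of the 8 genes, for 5.76% of all genes in that direction and for 16.5% in the other. None of the 8 was called, and 0.144% of all genes were called lower and 0% higher. All 3 were called without TPPU-treated mouse 3 (adjusted p = 0.0210, 0.0388 and 0.0344 by limma). That fit called 248 of all 695 genes, counting both directions. With array medians set equal, the differences on the plain scale ran from -1.14 for Siglecf to -0.44 for Cd300lf, each 0.20 smaller. Within the mice of high and of low Y-linked counts they ran from -1.42 to -0.66 and from -1.26 to -0.57, with 2 mice per group.

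TPPU-treated 5xFAD mice were also set against non-transgenic mice. This comparison shares its groups with both others and is given only as values. Lag3, at 112 to 372 against 82.4 to 107, was the 1 gene of the 8 without overlap (log2 difference 1.27, 95% interval 0.58 to 1.96, adjusted p = 0.167 by limma), where 6.19% of all genes lay fully higher. Lilrb4a had a difference of 1.55 (0.49 to 2.60, adjusted p = 0.175) and Siglecf of 1.26 (0.34 to 2.17, 0.175). The floor bears on the size of the Lilrb4a, Siglecf, Pilra and Cd300lf estimates here as well. Ptpn6 was at 0.78 (-0.002 to 1.55), Lair1 at 0.60 (0.11 to 1.08) and Pilra at 0.54 (-0.01 to 1.08). Cd33 was at 0.54 (0.11 to 0.96) and Cd300lf at 0.11 (-0.62 to 0.84). None of the 695 genes was called (0%). At an unadjusted p under 0.05, 5 of the 8 genes were higher, as were 95 genes in all (13.7%), and 7 genes (1.01%) were lower. Without TPPU-treated mouse 2, limma called 60 genes, among them Lag3 (adjusted p = 0.00308), Lilrb4a (0.00908), Siglecf (0.0170), Lair1 (0.0218) and Ptpn6 (0.0312). Relative to the microglial genes, Lag3 (log2 difference 0.64, adjusted p = 0.0282) and Lilrb4a (0.92, 0.0347) were called higher, where 2.59% of all genes were called higher and 50.5% lower. Both calls were lost without non-transgenic mouse 1, 2 or 3 or TPPU-treated mouse 1, 3 or 4. Over all 695 genes, counting both directions, the first 3 of these fits called 0, 0 and 68 and the last 3 called 104, 33 and 0. In these fits the estimates ran from 0.55 to 0.70 log2 for Lag3 and from 0.69 to 1.00 for Lilrb4a.

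**Figure D4:**
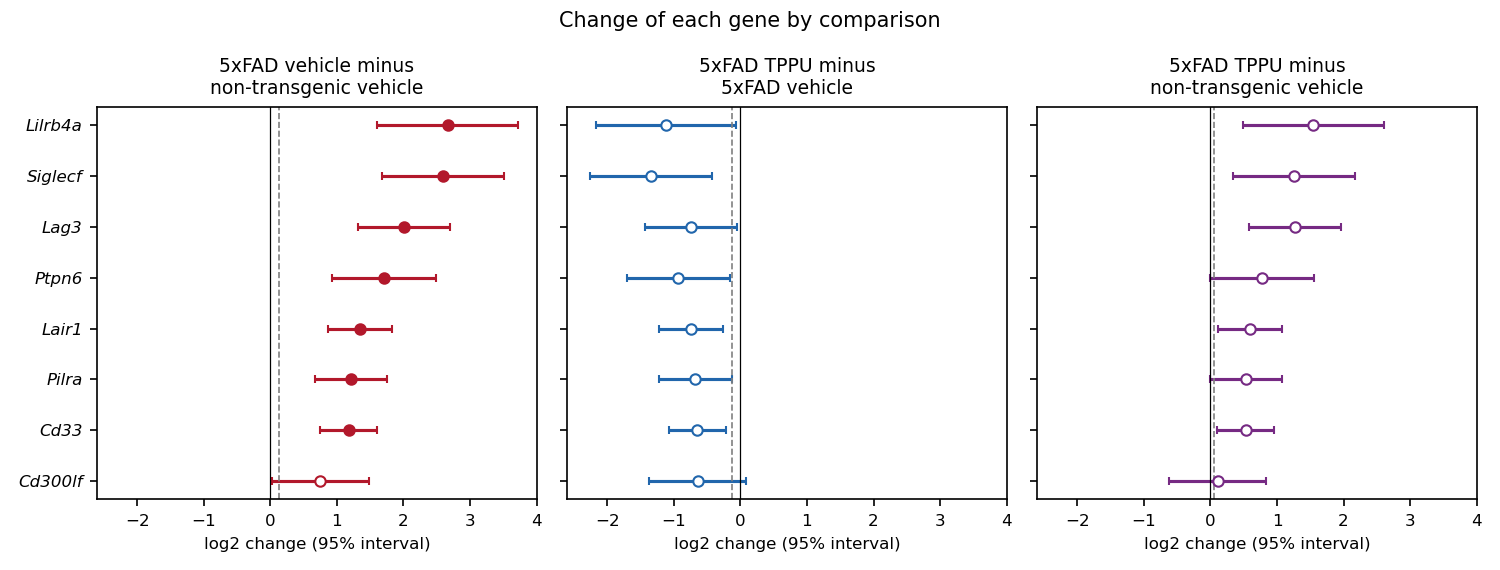
Log2 change of each gene (horizontal axis) with its 95% interval in the 3 comparisons, genes ordered by the genotype change. Filled points passed an adjusted p under 0.05 over 695 genes, open points did not, and the dashed line is the median of all genes (0.13, -0.12 and 0.06).

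Other genes on the panel were taken from a list of 54, made up of inhibitory receptors, phosphatases and related regulators. Of that list, 10 were in the table and 8 tested. Of these 8, 3 rose between the genotypes and 0 fell, where 18.7% of all genes rose and 0% fell. Fcgr2b, the inhibitory Fc gamma receptor, rose 5.51-fold from 148 ± 53.5 to 818 ± 309.7 normalized counts (SD, n = 4, adjusted p = 0.00280 by limma). Ptprc, the receptor phosphatase CD45, rose 3.81-fold from 47.5 ± 8.85 to 187 ± 55.4, and Inpp5d, which encodes SHIP-1, rose 2.17-fold from 74.8 ± 7.83 to 164 ± 20.6. Cd47, which delivers an inhibitory signal to macrophages through SIRP alpha, measured 4364 ± 221 in non-transgenic and 3970 ± 359 in vehicle-treated 5xFAD mice, without a call (adjusted p = 0.289 by limma). The list's median log2 change was 0.38, and under TPPU it was -0.44 with 0 of 8 called; Ptprc and Inpp5d had the smallest p (log2 differences -0.92 and -0.71, adjusted p = 0.212 for each).

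The opposing activating pathway was read from a second list. Of 20 tested members of the list of ITAM receptors, adaptors and kinases, 14 rose and 0 fell between the genotypes (18.7% and 0% of all genes), with a median log2 change of 1.36. The largest estimates were those of Clec7a (16.3-fold), Tyrobp (9.07-fold), Trem2 (8.04-fold), Fcer1g (4.39-fold), Fcgr3 (3.67-fold) and Fcgr1 (3.60-fold). Non-transgenic values of Clec7a, 10.9 to 24.2, lie within or under the floor given above, so the size of its fold is uncertain and it is not ranked. Under TPPU 0 of 20 were called (median -0.67), with Dock2 and Btk at the smallest p (log2 differences -0.93 and -0.82, adjusted p = 0.160 and 0.163 by limma). Whether the balance of activating and inhibitory genes differed was not tested.

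Possible ligands of the receptors were also on the panel. Of 7 tested genes on the ligand list, 4 rose between the genotypes, against 18.7% of all genes. C1qa, C1qb and C1qc, whose product C1q binds LAIR1 in human, rose 4.56-fold, 3.45-fold and 4.49-fold. Apoe, whose product binds LILRB4 in human, rose 1.86-fold. Under TPPU 0 of 7 were called, with C1qc and C1qb at the smallest p (log2 differences -1.11 and -1.32, adjusted p = 0.117 and 0.130 by limma).

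The genes whose pattern over the 12 mice was most like each of the 8 were found by the root mean square difference of log2 values, after each gene was centred on its own mean. Lag3 was nearest to Irf8, at 0.14 log2, Fcer1g (0.18) and C1qa (0.18), and Ptpn6 to Fcgr3 (0.13), Fcgr1 (0.16) and Man2b1 (0.17). Cd33 lay nearest to Slco2b1 (0.11), Tnfrsf1a (0.12) and Plcg2 (0.12), and Lair1 to Vav1 (0.17), Ncf1 (0.18) and Tnfrsf1a (0.19). Lilrb4a was nearest to C3ar1 (0.22), Trem2 (0.23) and Cd68 (0.24), while Siglecf was farther from any gene, with C1qa at 0.35, Ctss at 0.38 and Lag3 at 0.38. Pilra had Gna15 (0.26), Inpp5d (0.27) and Itgb5 (0.28). Cd300lf had no close neighbour, since the nearest, Ikbke, lay at 0.35, H2-T23 at 0.38 and Tbr1 at 0.39, against its own spread of 0.55.

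Among themselves, Lag3 and Ptpn6 were each other's nearest member at 0.26, and Cd33 and Lair1 at 0.22. Both Lag3 and Ptpn6 lie on chromosome 6 of the annotation, with 12 protein-coding genes between them. Cd300lf was the outlying member, at 0.60 from its nearest, Pilra, a gene that ranked 439 of 694 in likeness to it.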

How the data were processed

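RNA from the hippocampus of 12 mice was counted on a panel of 770 transcripts. Per the labels, the deposited signal is probe counts that the authors normalized using 10 housekeeping genes and their geometric mean. No software is named there. In each mouse all values were multiples of a single factor (100% within 0.01 of a whole number), which gave the probe totals. Groups came from the sample titles. Values were tested as log2(value + 1) with limma 3.58.1 in R 4.3.3 (lmFit, eBayes with trend, all 3 groups in 1 model, 9 residual degrees of freedom). Folds are on that scale and understate the change of low genes. Genes with a mean of at least 20 were tested, and p was adjusted by Benjamini-Hochberg over all 695. The same fit was repeated after subtracting each mouse's mean log2 level of 8 microglial genes. The 8 genes, the lists and the named-gene rule (all 8 genes, up to 6 called genes per list and comparison or the 2 with the smallest p, and the 3 nearest patterns per gene) were chosen with earlier results of these data known. Cd47, Pilrb1, Csf3r, Fpr1, Lcn2, Ly6g, Hdc, Itgax, Kit, Ms4a1, Slc17a6 and the T and mast cell genes lie outside that rule. These genes were named after their values were seen, as were the promoter stretches shown and the letters they mark. Other settings are given at the end. Plots used matplotlib 3.10.9 and Python 3.11.15. All 756 symbols matched RefSeq names, 7 of them as synonyms.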

Additional observations from a re-analysis of the deposited data

How the results depend on the processing

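The number of the 8 genes called between the genotypes was 7 in the reported fit and 6 to 8 in every other one. It was 6 with a minimum mean of 50, which removes Pilra and Cd300lf, and 8 with array weights. Over all genes those 2 fits called 108 and 150 higher and 0 lower, against 130 higher in the reported fit. In fits without 1 mouse of the groups compared, as in all such fits here, it was 7 to 8. For TPPU against vehicle it was 0, 4 with array weights (Siglecf, Cd33, Pilra and Lair1) and 0 to 4 without 1 mouse; over all genes array weights called 1 higher and 43 lower. For TPPU against non-transgenic mice it was 0, 4 with array weights (52 genes higher and 3 lower in all) and 0 to 5 without 1 mouse. Relative to the microglial genes the counts without 1 mouse were 4 to 4, 0 to 3 and, where 2 genes (Lag3 and Lilrb4a) passed for TPPU against non-transgenic mice, 0 to 3. The 3 calls for TPPU against vehicle came without TPPU mouse 3, where 248 of all 695 genes were called. Why array weights add calls was not tested. For TPPU against non-transgenic mice, Cd300lf turned to -0.1183 after quantile normalization and to -0.1243 without non-transgenic mouse 4, also when 5xFAD vehicle mouse 1, the other of high Ttr, was left out; without 1 mouse it ran from -0.1243 to 0.3218. Relative to the microglial genes, Pilra turned to -0.1228 between the genotypes with a pseudocount of 10, and Cd300lf to 0.1386 under TPPU without TPPU mouse 3 (-0.5004 to 0.1386 without 1 mouse). Lair1 turned to 0.01046 for TPPU against non-transgenic mice without non-transgenic mouse 4, alone or with 5xFAD vehicle mouse 1, and to 0.003086 without TPPU mouse 2 (-0.09033 to 0.01046 without 1 mouse). None of these was called.

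Mouse numbers are shared by the groups, and no label says that they pair the mice. Deviations of same-numbered mice correlated from -0.37 to 0.39 over 12 pairs, 6 of them over 0.1, so the numbers were not taken as pairs. The same number gave the best match in 10 of 24 cases, where a random choice would give 6. With the number as a replicate block, 7, 0 and 0 of the 8 genes were called, 4, 0 and 2 relative to the microglial genes. Before that subtraction, the replicate block called 125, 0 and 0 of all genes. The planned edgeR and DESeq2 fits were not run. Voom on the whole multiples stands in their place. Voom weights and a microglial reference without Csf1r were chosen after seeing the data and left each count of called genes of this set as reported. A block for Y-linked status gave 7, 0 and 0 calls, as did leaving out the mice of high Ttr. Over all genes these called 130, 0 and 0 with the block and 122, 0 and 0 without the mice of high Ttr.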

Other observations

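The spread between mice changed with the group. In non-transgenic mice the coefficient of variation of the 8 genes was 0.62 to 1.51 times that of probe counting alone (median 1.17). Several of the genes lie at low counts in these mice, where counting error is large. In vehicle-treated 5xFAD mice the ratio ran from 1.13 to 7.495 (median 3.81) and in TPPU-treated mice from 1.19 to 6.69 (median 4.14). It exceeded 2 for 7 and 6 of the 8 genes. Lilrb4a had the widest spread in both, with coefficients of variation of 54.2% and 67.3%, against 19.7% in non-transgenic mice. These are descriptions over 4 mice per group, with no test.

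The same mice stood at the ends for most of the 8 genes. In vehicle-treated 5xFAD mice, mouse 3 was highest for 5 genes and mouse 1 lowest for 6. In TPPU-treated mice, mouse 3 was highest for 6 genes and mouse 2 lowest for 7. Cd300lf went against this order, with TPPU-treated mouse 3 lowest, at 12.03 normalized counts. In none of the 24 combinations of gene and group did Dixon's ratio for the highest or lowest mouse exceed its 95% critical value.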
